A study of Hydra vulgaris with 12 samples.

Results

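Wnt3 is a secreted signalling protein made by the head organizer of Hydra, the group of cells at the tip of the mouth cone that directs head formation. Its transcript, listed as NM_001287363.1|Wnt3, is the single row of the deposited table whose identifier ends in that name, 1 of 17353 transcripts, and it was followed through all 12 libraries. RNA was sequenced from Hydra magnipapillata of strain 105 (listed under the species name Hydra vulgaris), a freshwater polyp that regrows a head after amputation. The groups are tissue taken at 0 h, 2 h, 4 h, 6 h, 12 h and 48 h after bisection, with 2 libraries each. The sample labels describe the same handling for all groups, but do not say on which days the pools were collected. Asexual animals with a young bud were starved for 1 day and cut below the region nearest the head, and 50 to 100 of them were pooled for each sample. RNA came from the next 2 regions of the upper trunk (R2 and R3), so the 0 h tissue is trunk that had just lost the old head. No uncut animals are among the groups, so time since the cut cannot be told apart from any longer time without food.

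Wnt ligands are lipid-modified proteins that bind Frizzled and LRP5/6 receptors on nearby cells. Binding blocks the complex that destroys beta-catenin, which then enters the nucleus and works with the transcription factor TCF on target genes. In the adult polyp, Wnt3 transcript is known from the mouth tip, and after decapitation from the tip of the regenerating stump, where it is among the Wnt genes that come on early. It is also known to act on its own gene through beta-catenin and TCF.

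The Wnt3 level was higher at every later time than at bisection and was highest at 48 h. Levels are in RPKM, reads scaled to transcript length and library size. The 0 h libraries held 1.98 and 2.72 RPKM, and the 2 h libraries 3.78 and 4.30 RPKM. The 4 h libraries held 6.91 and 5.29 RPKM, the 6 h libraries 8.30 and 6.15 RPKM, and the 12 h libraries 6.71 and 8.93 RPKM (replicate 1 first in each case). The 48 h libraries held 12.4 and 10.1 RPKM. The 12 libraries therefore fell into 4 ranges that did not overlap, with 0 h lowest, 2 h next, the 6 libraries of 4, 6 and 12 h mixed between 5.29 and 8.93 RPKM, and 48 h on top. Replicates of a time differed by 1.14-fold at 2 h to 1.37-fold at 0 h.

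**Figure D1:**
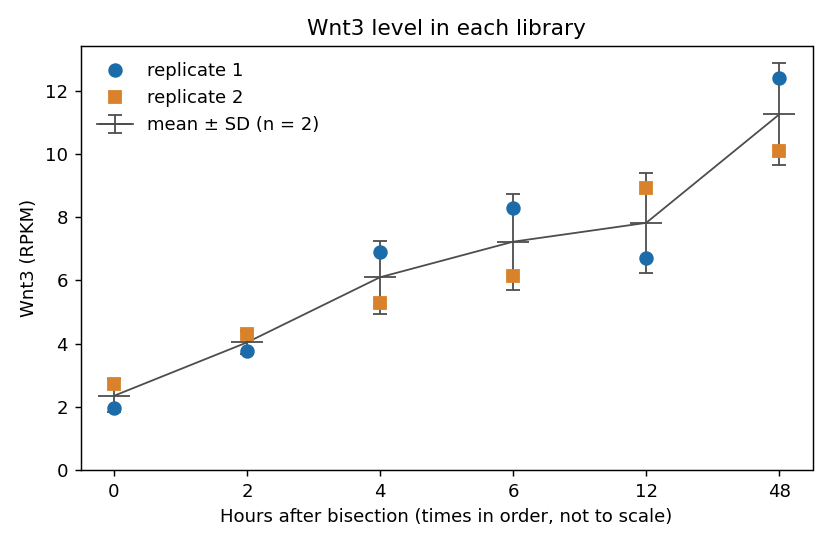
Wnt3 level in RPKM in each library (circles replicate 1, squares replicate 2) against hours after bisection, with times in order and not to scale; the line and bars give the mean ± SD of 2 libraries. The 2 libraries of 0 h lie below 3 RPKM, those of 2 h near 4 RPKM, and those of 48 h above 10 RPKM, while the libraries of 4, 6 and 12 h share 1 range.

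The separation into 4 ascending ranges was seen in Wnt3 first and then counted in all transcripts, so it is a description with no test. Of the 14283 transcripts tested (at least 1 RPKM in at least 2 libraries), 17, or 0.119%, showed it, and 184 showed the mirror image, with 0 h on top. Both counts depended on how libraries were scaled. The ascending pattern was found in 68 transcripts (0.476%) and its mirror image in 49 after each library was divided by a size factor, the median over transcripts of its ratio to the geometric mean library (median-ratio scaling), in 48 (0.336%) and 64 after quantile normalization, and in 19 (0.133%) and 138 with equal RPKM totals. Wnt3 kept the 4 ranges under each of these 3 scalings. RPKM at 48 h averaged 12.4 with median-ratio scaling, 12.9 with quantile normalization and 11.9 with equal totals, against 1.93, 1.88 and 2.44 at 0 h.

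At bisection Wnt3 was a weakly expressed transcript, and by 48 h it stood near the middle of all 17353 listed transcripts. It ranked 12973rd and 12378th of 17353 by RPKM in the 0 h libraries, with 74.8% and 71.3% of transcripts above it. At 2 h, 69.3% and 68.0% were above it, and over the 6 libraries of 4, 6 and 12 h the share ran from 54.3% to 63.1%. At 48 h it ranked 8087th and 8511th, with 46.6% and 49.0% above it. These ranks do not depend on a scaling factor, but they count transcripts listed at 0 RPKM. Above 0 were 16850 and 15519 transcripts in the 0 h libraries and 15950 and 14492 in the 48 h libraries. Among transcripts above 0, Wnt3 therefore stood lower than these shares say. The ratio of Wnt3 to the median transcript of its library was 0.137 and 0.200 at 0 h and 1.17 and 1.06 at 48 h. Part of that gain lies in the divisor, since the median RPKM was 14.5 and 13.6 in the 0 h libraries and 10.6 and 9.56 in the 48 h libraries.

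**Figure D2:**
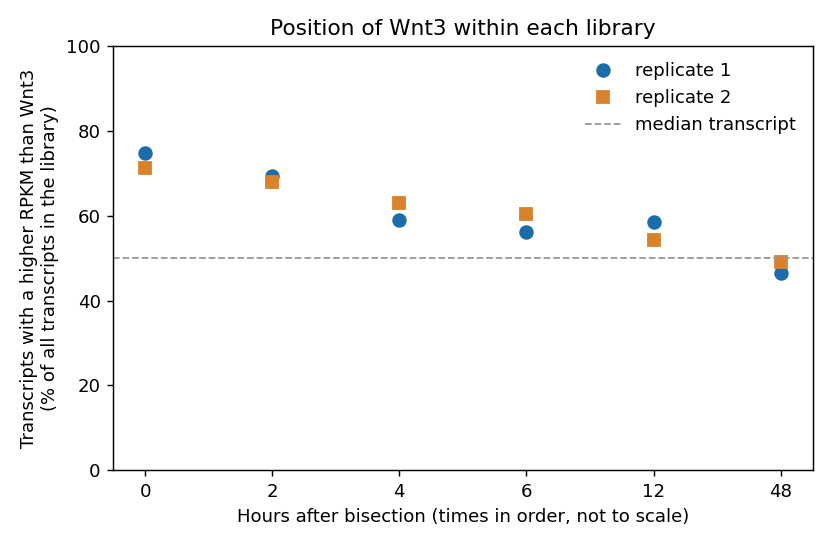
Share of all 17353 listed transcripts with a higher RPKM than Wnt3 (in percent) for each library against hours after bisection. Times are in order and not to scale. Circles are replicate 1, squares replicate 2, and the dashed line marks the median of all listed transcripts. The 48 h libraries, at 46.6% and 49.0%, are the 2 that lie under the line.

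Comparisons with 0 h ask when the Wnt3 level left that of freshly cut trunk. Values were compared as log2(RPKM + 1) in limma, with p-values adjusted by Benjamini and Hochberg over all 14283 transcripts. A call needed an adjusted p below 0.05 and a log2 fold change of at least 1 in size. Because of the added 1, such a fold change is smaller than the plain RPKM ratio of a low transcript like Wnt3. At 2 h the mean was 4.04 ± 0.367 RPKM, against 2.35 ± 0.522 at 0 h (SD, n = 2 libraries each), and the 4 ratios between single libraries ran from 1.39 to 2.17. The log2 fold change of 0.60 (95% interval −0.01 to 1.21) was not called, with a limma adjusted p of 0.325. At this time 19 transcripts, 0.133% of those tested, were called as risen, while Wnt3 ranked 1329th of all by log2 fold change.

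From 4 h on Wnt3 was called as risen at each time. At 4 h the mean was 6.10 ± 1.15 RPKM, and the log2 fold change against 0 h was 1.08 (95% interval 0.47 to 1.69, limma adjusted p = 0.0219). The share of transcripts called as risen was 4.55% in that comparison, and 5.34%, 5.51% and 5.29% in those of 6, 12 and 48 h. These shares depend on the scaling: at 6 h, 762 rises and 1274 falls became 1098 and 451 with median-ratio scaling, and at 48 h, 755 and 2443 became 1374 and 1129. The log2 fold change of Wnt3 was 1.29 at 6 h (interval 0.68 to 1.90, limma adjusted p = 0.00967). At 12 h it was 1.39 (0.78 to 2.00, adjusted p = 0.00579), and at 48 h it was 1.87 (1.26 to 2.48, adjusted p = 0.00141). Without the added 1, the mean at 48 h was 4.78 times that at 0 h, and the 4 ratios between single libraries ran from 3.71 to 6.25. The place of Wnt3 among all log2 fold changes moved up with time, with ranks of 969, 795, 701 and 338 for the comparisons of 4, 6, 12 and 48 h. At 48 h, 2.36% of transcripts had a larger one. These comparisons share the 2 libraries of 0 h, so they are not independent of each other.

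The 4 h call needed all 4 of its libraries. Leaving out replicate 1 or replicate 2 of 0 h gave a limma adjusted p of 0.0932 or 0.0561, and leaving out replicate 1 or replicate 2 of 4 h gave 0.143 or 0.0725. The 6 h call ended without replicate 1 of 6 h (adjusted p = 0.0748). In fits restricted to the libraries compared, limma's adjusted p was 0.0546, 0.0606 and 0.0640 for 4, 12 and 48 h. Those 3 calls therefore need the fit of all 6 times. The SE was 0.268, 0.336 and 0.364 in the restricted fits, against 0.27 in the full fit, so it was not larger at 4 h.

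The typical transcript moved the other way in the values as deposited. The median log2 fold change over all tested transcripts was −0.11, −0.28, −0.30, −0.32 and −0.39 at the 5 later times in order. Relative to those medians, Wnt3 lay higher by 0.70, 1.36, 1.59, 1.71 and 2.26. Median-ratio scaling is built to hold the median transcript near 0, and it lay within 0.02 of 0 there. The Wnt3 log2 fold changes in that scaling were 0.67, 1.30, 1.52, 1.65 and 2.20. At 2 h the interval in that scaling was 0.07 to 1.27, with a limma adjusted p of 0.310. In this bulk tissue, more cells with Wnt3 transcript and more transcript per cell cannot be told apart.

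**Figure D3:**
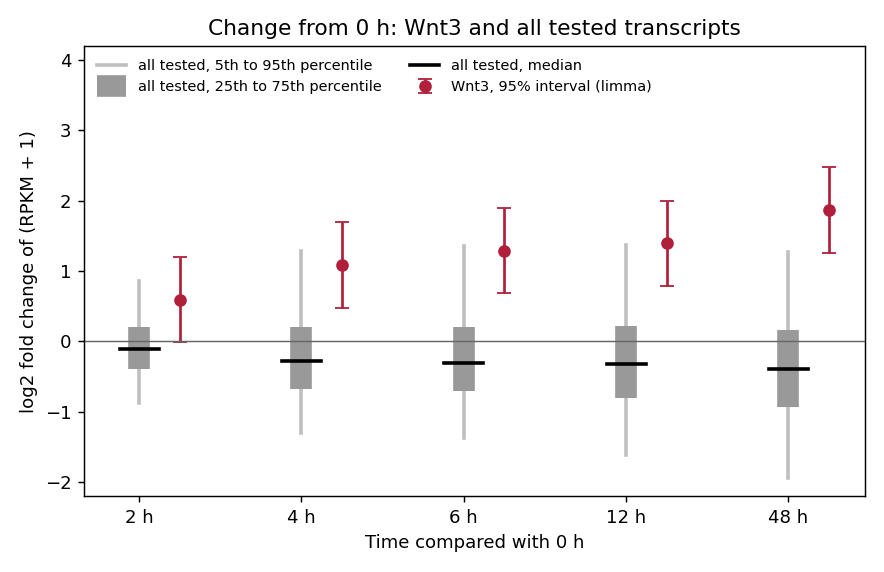
Log2 fold change of (RPKM + 1) against 0 h for Wnt3 (red points, with limma 95% intervals) and for all 14283 tested transcripts (grey, 5th to 95th and 25th to 75th percentile, with a black bar at the median) at 5 times. Wnt3 lies above the upper quartile at each time and above the 95th percentile at 12 h and 48 h, while the median of all transcripts lies below 0.

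Comparisons between later times ask whether Wnt3 went on changing after its first rise. Against 2 h, Wnt3 had risen at 48 h, with a log2 fold change of 1.28 (95% interval 0.67 to 1.89, limma adjusted p = 0.0116), and 3.83% of transcripts were called as risen in that comparison. The means were 11.2 ± 1.61 RPKM at 48 h and 4.04 ± 0.367 at 2 h (SD, n = 2 each). That call was lost without 2 h replicate 1 (limma adjusted p = 0.0739) or 2 h replicate 2 (0.0560), when limma weighted each library (0.0615), and in the fit restricted to the libraries compared (0.101). For 6 h and 12 h against 2 h, the log2 fold changes were 0.70 and 0.80, with limma adjusted p of 0.122 and 0.0698. Neither was called, although the intervals, 0.09 to 1.31 and 0.19 to 1.41, lay above 0. Rises were called in 4.47% and 4.07% of transcripts there. The outcome depended on the scaling. Median-ratio scaling gave 0.85 and 0.98 (limma adjusted p = 0.0682 and 0.0351), both under the minimum of 1. Quantile normalization gave 0.97 and 1.10 (0.0459 and 0.0247), the second a call, and equal RPKM totals gave 0.59 and 0.72 (0.179 and 0.0991).

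No step between neighbouring times was called for Wnt3. The log2 difference was 0.49 from 2 to 4 h (interval −0.12 to 1.10), 0.21 from 4 to 6 h (−0.40 to 0.82), 0.10 from 6 to 12 h (−0.51 to 0.71) and 0.48 from 12 to 48 h (−0.13 to 1.09). Limma's adjusted p was 0.299, 1, 0.897 and 0.296 in the same order, while rises were called in 3.33%, 0.133%, 0.987% and 2.45% of transcripts. All 4 intervals span 0 in the values as deposited. With median-ratio scaling the interval from 2 to 4 h lay above 0 (0.63, interval 0.03 to 1.23), again without a call (limma adjusted p = 0.189). Both later libraries lay above both earlier ones from 2 to 4 h and from 12 to 48 h. From 4 to 12 h the libraries of different times overlapped, and the 12 h against 4 h difference was 0.31 (−0.30 to 0.92, limma adjusted p = 0.634; rises called in 0.315% of transcripts). At 6 to 12 h the sign itself turned on single libraries, being −0.09 without 6 h replicate 2 and −0.08 without 12 h replicate 2. Against the 3 middle times, both 48 h libraries lay above every one of the 6, and the log2 difference was 0.79 from 4 h (0.18 to 1.40, limma adjusted p = 0.0754) and 0.58 from 6 h (−0.03 to 1.19, adjusted p = 0.161). Rises were called in 3.82% and 4.77% of transcripts in those comparisons. With median-ratio scaling the adjusted p for 48 h against 4 h was 0.0469, but the log2 difference of 0.90 stayed under the minimum of 1. The interval for 48 h against 6 h then lay above 0 (0.08 to 1.28, limma adjusted p = 0.102).

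**Figure D4:**
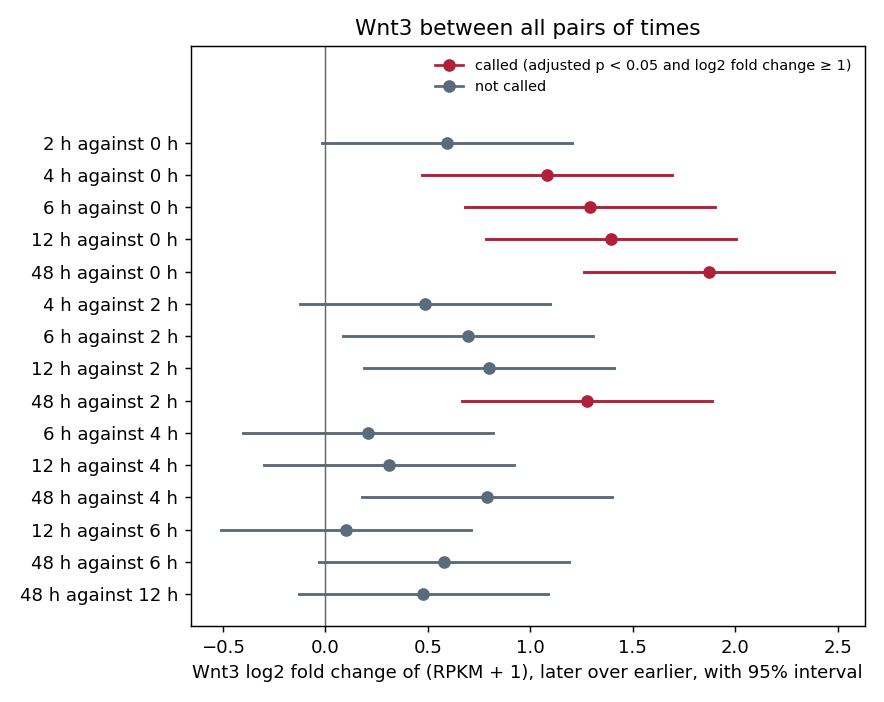
Log2 fold change of (RPKM + 1) of Wnt3, later over earlier time, for all 15 pairs of times, with limma 95% intervals; red marks a call and grey none. The 5 called pairs are 4, 6, 12 and 48 h against 0 h and 48 h against 2 h, and the intervals of the pairs within 4 to 12 h all span 0.

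As a description of pace, 42.1% of the RPKM difference between 48 h and 0 h had been reached at 4 h, 54.8% at 6 h and 61.5% by 12 h. On the log2(RPKM + 1) scale the shares were 57.8%, 69% and 74.4%. The mean differed by 0.844 RPKM per hour over the first 2 h, by 1.03 from 2 to 4 h and by 0.562 from 4 to 6 h. It then differed by 0.0993 RPKM per hour from 6 to 12 h and 0.0952 from 12 to 48 h. On the log2 scale the first step was the fastest, at 0.298 per hour, against 0.243 from 2 to 4 h. The fastest step thus depends on the scale, and none of these steps was called. No sample lies between 12 and 48 h, so the course within that interval was not measured.

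Over the whole course, Wnt3 moved upward with the order of the times. A limma contrast over the 6 times in order gave a rise of 0.34 per step on the log2 scale (SE 0.0456, 95% interval 0.24 to 0.44, adjusted p = 6.95e-04). Trends were called upward in 1454 transcripts, or 10.2%, and downward in 4493, but with median-ratio scaling upward in 2643 and downward in 2253. Wnt3 ranked 342nd of 14283 by slope. The slope was 0.35 without the 48 h libraries (limma adjusted p = 0.00204) and 0.29 without the 0 h libraries (0.0135). A limma F-test for change at any time also passed (adjusted p = 0.00647), as it did for 41.1% of transcripts. Means that were higher at each of the 5 steps, as for Wnt3, were found in 65 transcripts, or 0.455%, and in 170 after median-ratio scaling. Within single replicates, Wnt3 was higher at every step in replicate 2, but in replicate 1 it was lower at 12 h (6.71 RPKM) than at 6 h (8.30 RPKM). Calls as risen at all of 4, 6, 12 and 48 h were made for 160 transcripts, or 1.12%, Wnt3 among them.

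A test that needs no model of the spread compared the 10 later libraries with the 2 of 0 h. The mean of log2(RPKM + 1) was 2.98 in the later libraries and 1.74 in the 0 h libraries, a difference of 1.25 (two-sided exact permutation test over 66 splits, p = 0.0152, the smallest it can give). All 10 later libraries lay above both 0 h libraries, which held for 3.13% of tested transcripts. The permutation test largely restates that order, already described above, and its p is not adjusted over the tested transcripts.

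The spread of Wnt3 between replicates was not large for this table. Its residual SD on the log2 scale was 0.221, and 66.8% of tested transcripts had a larger one. Limma moderated it to 0.270 by drawing it towards the 0.347 typical of transcripts at this level.

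The transcripts whose course was most like that of Wnt3 were sought by Pearson correlation of log2(RPKM + 1) over the 12 libraries. This is a description across libraries that share their scaling and their time order, and it says nothing of shared function. XM_002170146.2 came first (r = 0.95). It is far more abundant than Wnt3 and changed less, with 306 ± 24.8 RPKM at 48 h against 163 ± 9.34 at 0 h (SD, n = 2 each). Its log2 fold change at 48 h was 0.90, under the minimum of 1 for a call. XM_004206031.1 came second (r = 0.94). It had 5.12 and 4.19 RPKM in the 48 h libraries against 0.243 RPKM and a listed 0 in the 0 h libraries (log2 fold change 2.34). The courses most opposed to Wnt3 were those of XM_002162212.2 (r = −0.97) and XM_004211022.1 (r = −0.97). XM_002162212.2 fell to 31.9 ± 3.32 RPKM at 48 h, against 96.8 ± 0.258 at 0 h (SD, n = 2 each, log2 fold change −1.58). XM_004211022.1 fell to 15.8 ± 2.41 RPKM, against 56.5 ± 8.68 (SD, n = 2 each, log2 fold change −1.77). All 4 transcripts were picked by their correlation with Wnt3 in these same libraries. The direction of their changes was thus largely set by the choice, and no p is given. The files pair none of these 4 identifiers with a gene name.

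**Figure D5:**
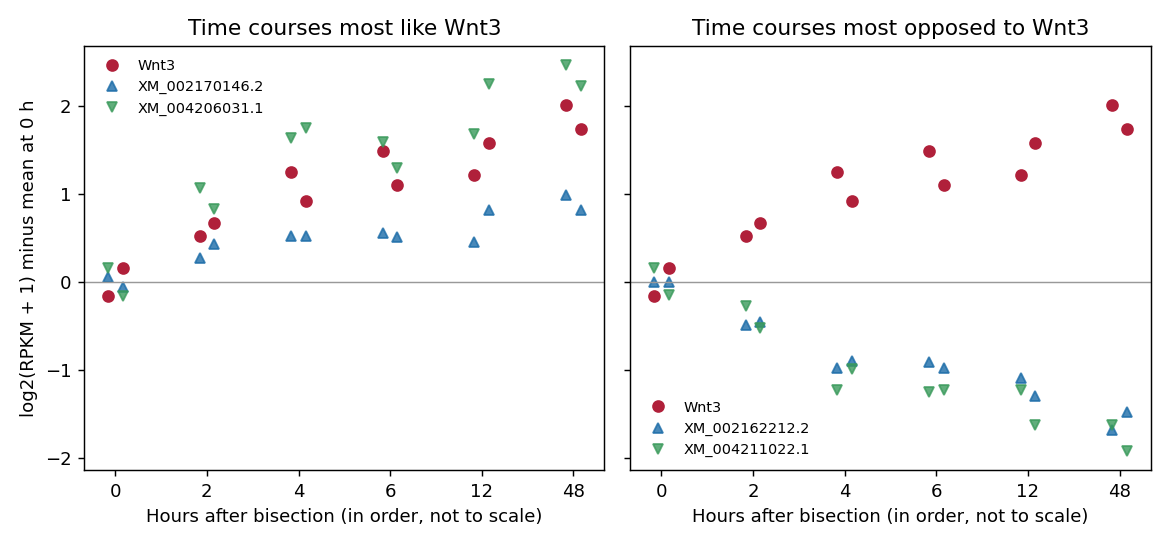
Log2(RPKM + 1) minus the 0 h mean in each library against hours after bisection (times in order, not to scale) for Wnt3 and the 2 transcripts with the highest (left) and lowest (right) correlation with it. The left pair lies above its 0 h mean in every later library, XM_002170146.2 with a smaller and XM_004206031.1 with a larger change than Wnt3 at 48 h, and the right pair lies below its 0 h mean in every later library.

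Of the other 14282 tested transcripts, 14 had r of at least 0.9 with Wnt3 and 179 had r of −0.9 or below. The balance differed between scalings, with 56 and 110 after quantile normalization and 85 and 69 with median-ratio scaling. In the last, the median correlation over all transcripts was −0.01, against −0.32 in the values as deposited. XM_002170146.2 was also the closest match with median-ratio scaling, with r of 0.98. After quantile normalization its r was 0.8995, under the 0.9 that 56 transcripts reached, so it was not the closest there. XM_004206031.1 had r of 0.88 with a pseudocount of 0.1 and 0.88 by Spearman correlation. Which transcripts come first therefore depends on the processing.

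The remaining members of the Wnt pathway could not be set beside Wnt3. A list of Wnt ligands, receptors, beta-catenin and its destruction complex, TCF, Dickkopf and other antagonists, and head genes such as brachyury and goosecoid was sought by name. The table names 1 of its 17353 transcripts, Wnt3 itself. A RefSeq gene list of another Hydra assembly, used for names alone, matched 1 identifier, again that of Wnt3, which it lists as protein-coding with the synonym Wnt3a. The list names 10 other Wnt genes with 13 transcripts, and none of these accessions is a row of the table. For the same reason, the tissue could not be checked against head, foot or trunk markers, and Wnt3 is the single head gene read here.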

How the data were processed

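Poly(A) RNA with integrity numbers above 9.0 was made into strand-specific libraries and read as 50 bp single ends, per the labels' protocols. The authors deposited RPKM values, 1 column per library. Bowtie 0.12.8 is named in the submitters' processing notes. Not given in the sources used here are the build, how reads were assigned to transcripts and any further scaling. Each library lists 1489 to 1968 transcripts at under 0.001 RPKM though not at 0, so whole reads could not be recovered and depth is unknown. RPKM totals ran from 1330541 to 1535758. Reads shared with related transcripts cannot be recognised.

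Transcripts that reached 1 RPKM in 2 or more of the 12 libraries were analysed as log2(RPKM + 1) with limma 3.58.1 (R 4.3.3), 1 mean per time and a variance trend, with 6 residual degrees of freedom. All tests were two-sided, and the procedure was tested on simulated data. The labels do not say whether the 2 pools of a time were handled separately throughout, so p-values measure the spread between these samples, which may be technical. The transcript, the lists and the tests were chosen with earlier results of these data known. Besides Wnt3, the 2 tested transcripts with the highest and the 2 with the lowest correlation with it were named. Alternatives covered the pseudocount, filter, scaling, variance model, library weights, replicate block and left-out libraries.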

Additional observations from a re-analysis of the deposited data

How the results depend on the processing

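The upward trend and the F-test passed in every alternative run, 28 and 27 of them, with trends of 0.21 to 0.43 per step and limma adjusted p up to 0.0135 and 0.0260. The F-test, made of contrasts with 0 h, has no run without the 0 h libraries. With a pseudocount of 5, Wnt3 fell under the minimum log2 fold change at 4 h (0.59), 6 h (0.73) and 12 h (0.80) against 0 h and at 48 h against 2 h (0.84). That follows from the larger added value, since each adjusted p stayed below 0.05, at 0.0311, 0.0126, 0.00714 and 0.00830. With equal RPKM totals, chosen after seeing the data like the trends with a time left out, 4 h against 0 h gave 0.98. Quantile normalization made 12 h against 2 h a call (1.10). Weights per library ended the call of 48 h against 2 h (1.28). Fits of only the 4 libraries compared, with fewer degrees of freedom, ended those of 4 h (1.08), 12 h (1.39) and 48 h (1.87) against 0 h and 48 h against 2 h (1.28). Leaving out single libraries gave 0.92 to 1.25 at 4 h, 1.10 to 1.48 at 6 h, 1.14 to 1.41 for 48 h against 2 h and −0.09 to 0.29 for 12 h against 6 h, reversed at −0.0877 and −0.0817. A time left with 1 library is then assumed to vary like the others. The difference between later and 0 h libraries was 1.09 to 1.41, and with 1 library of 0 h the exact permutation test cannot go below p = 0.0909. Over the 5 comparisons with 0 h, the adjusted p of Wnt3 ranged over alternatives from 0.225 to 0.713 at 2 h, 0.0103 to 0.143 at 4 h, 0.00451 to 0.0748 at 6 h, 0.00274 to 0.0606 at 12 h and 8e-04 to 0.0640 at 48 h.

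Counts of all transcripts called moved more. The 35 calls at 2 h were 22 with a pseudocount of 0.1 or median-ratio scaling, 78 with a pseudocount of 5, 55 with quantile normalization, 12 without the variance trend, 145 with weights per library, 13 with the replicate block, 0 in the fit of 4 libraries and 2 to 141 without single libraries. The 3198 at 48 h were 1880 with weights and 523 in the fit of 4 libraries, and the 2635 at 12 h were 1696 there. Without single libraries, the counts were 840 to 2024 at 4 h, against 1709, 1018 to 2343 at 6 h, against 2036, and 1725 to 2985 at 12 h. The cause of these shifts was not tested. Replicate numbers showed little sign of pairing: 1 of 15 pairs of times had deviations correlated above 0.1, and the highest correlation was 0.23. A count past a single threshold cannot exclude pairing. The replicate block left every call of Wnt3 in place (4 h against 0 h: 1.08, adjusted p = 0.0339 in limma). Depth is unknown, so counting error at the low RPKM of Wnt3 could not be given.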
